A study of Mus musculus with 466 samples.

Results

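The 34 genes described here encode plasma proteins of blood coagulation with its fibrinolysis and of complement, 19 genes of the first kind and 15 of the second. They were matched by symbol, with older synonyms allowed, to the probe sets of an Affymetrix microarray, hybridised with biotin-labelled total RNA, that names 16643 genes, and all 34 were found. C1ra was listed under its older name C1r, and cannot be told apart from its near-identical copy C1rb, nor can Kng1 from Kng2. Where a gene had several probe sets (F5, C9 and Masp1), the one with the highest mean in the tissue was used.

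The mice were obese C57BL/6J males on caloric restriction, sampled after 0, 1, 3, 7, 14, 21, 42 or 60 days. Liver was measured in 5 mice on day 1, 11 on day 3, 12 on day 7, 10 on day 14, 12 on day 21, 12 on day 42 and 6 on day 60, against 12 on day 0, and 4 fat depots came from the same animals with at most 2 fewer per day. The series text lists days up to 42, while its title and labels reach day 60. No mice without restriction were sampled after day 0, so any change with age is part of every contrast, and the age, the diet before restriction and the size of the restriction are not given in the labels. Animal IDs open with J or N, whose meaning is not given. All day 1 mice are J and all day 60 mice are N, so the letter was a term of the fit. The 1 day 3 mouse with neither letter is in the levels but was dropped from the fit, which has 10 mice at day 3.

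Most circulating clotting factors and complement components are made by hepatocytes and secreted into plasma. In coagulation, a cascade of proteases ends in thrombin, which cuts fibrinogen into fibrin, while inhibitors restrain the proteases and plasmin dissolves the clot. In complement, the classical, lectin and alternative routes meet in the cleavage of C3, and the late components then assemble a pore, the membrane attack complex. Several of these proteins belong to the acute-phase response, in which inflammatory cytokines act on hepatocytes, and fat tissue makes components of the alternative route itself.

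The deposited values are linear intensities, of which the highest on any array was 39.3. Differences are given on the log2 scale, each with its standard error from limma after the ± sign. A gene was called when its p-value, adjusted over all genes tested in the tissue, was under 0.05. Summed hepatocyte markers, 11 of 12 measured, ran from 293 to 309 in liver on day 42 and from 289 to 305 on day 0, so the liver label stands. The depots are named only by their labels, which a sum of markers did not follow. The summed markers of mesothelium, the cell layer that covers organs of the body cavity, were 0.361 to 0.417 on day 0 in the perigonadal-labelled depot and 5.38 to 13.03 in the subcutaneous-labelled one, although perigonadal fat lies inside that cavity and subcutaneous fat outside it. The same sum ran from 13.6 to 16.8 in liver on day 42, so it is not specific to mesothelium. In bulk tissue, fewer cells of a type and less RNA per cell cannot be told apart. Near the top of the scale differences were small: of the 55 genes with a mean liver intensity above 24, which include 6 members, 9.09% were called at day 42, with a median absolute log2 change of 0.0105.

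On day 42 a pair of liver arrays stood apart in several marker sums. Mice J4 and N70 had erythroid marker sums of 1.39 and 1.55, against 2.65 to 3.97 in the other 10 mice of that day, from 3 measured genes of 7 listed. Both also lay below all 10 in their sums of Kupffer cell and macrophage markers (14.2 and 13.1, against 14.7 to 16.6), lymphocyte markers (0.516 and 0.571, against 0.702 to 0.868) and pancreas and intestine markers (12.6 and 12.9, against 14.8 to 17.7), and above them in bile duct cell markers (1.15 and 1.29, against 0.866 to 1.06). The hepatocyte marker sums of both lay within the range of the others (297 and 299, against 293 to 309). Of the 34 members, 8 were lower in both mice than in every other day 42 mouse (C4bp, C6, C8a, C9, C1ra, Mbl1, Klkb1 and Proc). Another 5 were higher in both (F7, F9, Serpinc1, Serpinf2 and C3). The share of all genes that did so was not computed, so these counts cannot be read as particular to the members. Day 42 results are therefore given with and without this pair. Mouse N15 of day 7 lay farthest of the 80 liver arrays from the median of its day, with a mean absolute distance of 0.14 log2 units against a median of 0.073 over the arrays. By the same distance J4 ranked 2 (0.13) and N70 ranked 6 (0.11), so N70 was not singled out by this measure.

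All 34 members passed the filter on low values in liver, where 13536 genes were tested, and most moved little. The ratio of the highest to the lowest day median was widest for C9, at 1.20, and narrowest for Proc, at 1.01. Over all days the F test of limma called 12 of the 34 members, against 28.5% of all genes. Of these 12, 9 are complement genes: C4bp, Cfb, Cfi, C9, Hc, Mbl1, Masp2, Mbl2 and C3. The 3 coagulation genes were Pros1, Plg and F9.

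After 1 day of restriction 5 of 34 members were higher in liver than on day 0, while 1.83% of all genes were called higher and 1.80% lower. They were Cfb, C4bp, Cfi, Hc and Plg, and no member was called lower. Cfb encodes factor B, the protease of the alternative complement route. It had intensities of 15.5, 16.02, 15.99, 15.3 and 15.7 in the 5 day 1 mice, against a lowest, median and highest of 14.4, 14.7 and 15.4 in the 12 day 0 mice. A single day 0 mouse lay above the lowest day 1 mouse, and the log2 change was 0.087 ± 0.016 (adjusted p = 0.00042, higher in 5 of 5 mice). For such counts each mouse was compared with the mean of the day 0 mice that share its letter.

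C4bp encodes a plasma protein that restrains the classical and lectin routes by binding C4b. Its intensities were 18.1, 19.02, 19.6, 17.9 and 19.2 on day 1, against 17.6 to 18.2 on day 0, and 3 of the 5 mice lay above every day 0 mouse (0.071 ± 0.017, adjusted p = 0.0076, 5 of 5 mice). Cfi encodes factor I, the protease that cuts the active fragments of C3 and C4. It stood at 18.03, 18.2, 18.9, 17.5 and 18.2 on day 1, against 16.9 to 17.6, and 4 of the 5 mice lay above every day 0 mouse (0.066 ± 0.014, adjusted p = 0.0032, 5 of 5 mice). Hc, the mouse gene for complement component 5, stood at 15.98, 16.1, 16.6, 15.6 and 16.2, against 14.5 to 15.98 (0.082 ± 0.020, adjusted p = 0.0096, 5 of 5 mice). Plg, which encodes the precursor of plasmin, stood at 8.57, 7.90, 8.21, 8.50 and 8.43, against 7.64 to 8.15 (0.085 ± 0.024, adjusted p = 0.031, 5 of 5 mice). For Hc and Plg the ranges of the days overlapped too.

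The day 1 calls other than that of Cfb were lost without single mice. Mouse J60 was the highest of the 5 for C4bp, Cfi and Hc. Without it Cfb alone was called, at 0.080 (adjusted p = 0.0068), and C4bp, Cfi, Hc and Plg had 0.055, 0.052, 0.071 and 0.090, with adjusted p-values of 0.11, 0.069, 0.084 and 0.070. Plg missed the threshold on leaving out any of 4 of the 5 mice, with 0.074 (adjusted p = 0.13) without J15, 0.077 (adjusted p = 0.068) without J7 and 0.081 (adjusted p = 0.081) without J80, and only leaving out J20 kept its call (0.10, adjusted p = 0.020). Cfb, C4bp, Cfi and Hc kept theirs without each of J7, J15, J20 and J80. Members that missed the threshold with all 5 mice included Pros1, the cofactor of activated protein C (0.096 ± 0.030, adjusted p = 0.055, 5 of 5 mice), and Mbl1, a mannose-binding lectin that opens the lectin route (0.12 ± 0.046, adjusted p = 0.14, 5 of 5 mice). Of the 34 estimates 28 were above 0, with a median of 0.027, against a median of -0.0051 over all genes tested. Kupffer cell and macrophage markers, 7 of 7 measured, summed to 15.8 to 19.03 on day 1 and to 13.2 to 17.2 on day 0, and their part in the result was not tested.

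**Figure D1:**
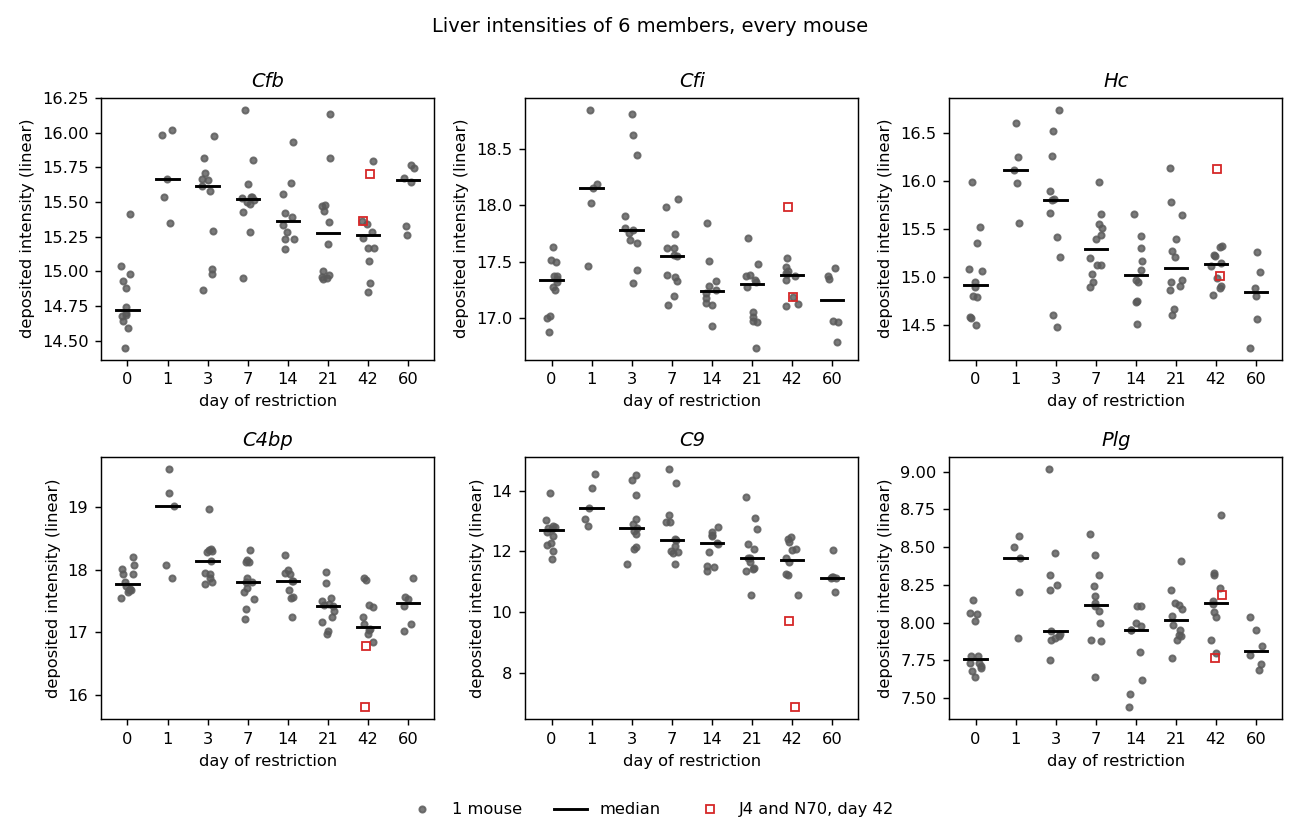
Deposited linear intensity (vertical axis, not starting at 0) of Cfb, Cfi, Hc, C4bp, C9 and Plg in liver by day of restriction, with 1 point per mouse and a bar at the median of each day; red squares mark mice J4 and N70 of day 42. The median of Cfb lies above its day 0 value of 14.7 on every later day, and C4bp and C9 have medians of 17.1 and 11.7 on day 42 against 17.8 and 12.7 on day 0.

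On day 3 the called members were Cfb, Cfi and Hc, all higher, which is 3 of 34 against 1.18% of all genes called higher and 2.90% lower. Cfb had a lowest, median and highest of 14.9, 15.6 and 15.98 (0.061 ± 0.013, adjusted p = 0.0017, 10 of 10 mice). Cfi had 17.3, 17.8 and 18.8 (0.047 ± 0.011, adjusted p = 0.0071, 10 of 10 mice). Hc had 14.5, 15.8 and 16.7 (0.054 ± 0.016, adjusted p = 0.032, 8 of 10 mice), and its range on day 3 covered that of day 0. The call of Hc was lost with quantile normalisation (0.048, adjusted p = 0.071) and with eBayes without its trend and robust options (adjusted p = 0.054). In either letter alone no member was called on day 3, with adjusted p reaching 0.51 for Hc, 0.50 for Cfi and 0.22 for Cfb. Cfi and Hc were called on no later day against day 0, with 0.0072 ± 0.011 (adjusted p = 0.69) and 0.016 ± 0.015 (adjusted p = 0.50) on day 42.

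From day 7 to day 21 few members were called, and Cfb was called on each of these days. On day 7 3 members were higher and none lower, while 2.73% of all genes were higher and 5.68% lower. On day 14 1 member was higher, against 4.23% higher and 7.98% lower of all genes, and on day 21 2 were higher and 1 lower, against 3.47% and 5.47%. Cfb changed by 0.068 ± 0.012 on day 7 (adjusted p = 7.7e-05, 12 of 12 mice), 0.058 ± 0.013 on day 14 (adjusted p = 0.00083, 10 of 10) and 0.048 ± 0.012 on day 21 (adjusted p = 0.0056, 12 of 12).

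C1ra encodes a protease of the first component of the classical route. It had 7.76, 7.96 and 8.55 on day 7 (0.061 ± 0.021, adjusted p = 0.047, 10 of 12 mice) and 7.58, 7.94 and 8.64 on day 21 (0.067 ± 0.021, adjusted p = 0.028, 11 of 12 mice), against 7.27, 7.65 and 8.39 on day 0. The day 7 call was lost without the letter term (adjusted p = 0.065), without the filter (adjusted p = 0.057), with eBayes without its options (adjusted p = 0.059) and in either letter alone (0.050, adjusted p = 0.66 in J mice and 0.073, adjusted p = 0.098 in N mice). The day 21 call was lost in either letter alone (0.057, adjusted p = 0.43 in J mice and 0.077, adjusted p = 0.091 in N mice). F7 encodes factor VII, which opens clotting together with tissue factor. It had 3.88, 4.06 and 5.05 on day 7, against 3.70, 3.89 and 4.10 on day 0 (0.091 ± 0.026, adjusted p = 0.014, 11 of 12 mice). The highest value was that of mouse N15, and without it the change was 0.066 (adjusted p = 0.053). Mbl2, the other mannose-binding lectin of the mouse, fell on day 21, with 14.3, 14.9 and 15.4 against 14.9, 15.5 and 15.8 on day 0 (-0.052 ± 0.013, adjusted p = 0.0066, 12 of 12 mice), and missed the threshold with arrays centred on their median (-0.043, adjusted p = 0.12). No member was called on day 14 or day 21 in either letter alone, and there the adjusted p of Mbl2 on day 21 reached 0.22.

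On day 42 members were called in both directions, together at a share close to that of all genes. Of the 34 members 4 were higher (C3, Cfb, F7 and Plg) and 4 lower (C4bp, C8g, C9 and Masp2), while 8.08% of all genes were called higher and 13.2% lower. The 4 lower members are all complement genes. C9, whose protein polymerises into the pore of the membrane attack complex, had 6.86, 11.7 and 12.5 on day 42, against 11.7, 12.7 and 13.9 on day 0 (-0.19 ± 0.050, adjusted p = 0.0032, 12 of 12 mice). The lowest value, 6.86, was that of mouse J4, and N70 had 9.70. Without both the change of C9 was -0.10, adjusted p = 0.032, and without J4 alone it was -0.12, adjusted p = 0.0074.

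C4bp had 15.8, 17.1 and 17.9 on day 42, against 17.6, 17.8 and 18.2 on day 0 (-0.059 ± 0.013, adjusted p = 0.00026, 11 of 12 mice), and -0.045, adjusted p = 0.0047 without J4 and N70. Masp2, a protease that the mannose-binding lectins activate, had 6.50, 8.06 and 8.19, against 7.91, 8.31 and 8.72 (-0.074 ± 0.021, adjusted p = 0.0075, 11 of 12 mice), and -0.048, adjusted p = 0.059 without the pair. C8g, a subunit of the membrane attack complex, had 18.1, 18.7 and 19.1, against 18.7, 19.02 and 19.7 (-0.029 ± 0.010, adjusted p = 0.028, 11 of 12 mice), and -0.025, adjusted p = 0.096 without the pair. C8g also missed the threshold with quantile normalisation (adjusted p = 0.081), with arrays centred on their median (adjusted p = 0.17) and with eBayes without its options (adjusted p = 0.063). The ranges of the days overlapped for C9, C4bp, Masp2 and C8g.

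Among the members that were higher on day 42, Cfb had 14.9, 15.3 and 15.8, against 14.4, 14.7 and 15.4 on day 0 (0.044 ± 0.012, adjusted p = 0.0043, 12 of 12 mice). C3, the component on which all routes meet, had 31.8, 32.4 and 33.5, against 31.2, 31.8 and 32.4 (0.031 ± 0.0080, adjusted p = 0.0023, 11 of 12 mice). F7 had 3.81, 4.10 and 4.44, against 3.70, 3.89 and 4.10 (0.080 ± 0.026, adjusted p = 0.016, 11 of 12 mice). These ranges also overlapped, and each gene was higher in 11 or 12 of the 12 mice. Plg had 7.76, 8.13 and 8.71, against 7.64, 7.76 and 8.15 (0.053 ± 0.018, adjusted p = 0.025, 10 of 12 mice). Without J4 and N70 Cfb had 0.039, adjusted p = 0.021, C3 0.024, adjusted p = 0.026 and Plg 0.059, adjusted p = 0.022, while F7 had 0.061, adjusted p = 0.10.

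The erythroid marker sum moved with these results, with a median of 3.46 on day 42 and of 4.01 on day 0. Both of its tested genes, Alas2 and Slc4a1, fell. Of other marker lists in liver on day 42, 2 of 5 platelet genes, 2 of 7 stellate cell and fibroblast genes and 1 of 4 adipocyte genes were lower and none higher, and of the 11 hepatocyte genes Ahsg was higher. These small counts stand beside 13.2% of all genes called lower and 8.08% called higher. No Kupffer cell, neutrophil or lymphocyte marker was called. Whether the marker changes take part in those of the members was not tested other than by the covariates here. With erythroid and muscle marker scores as covariates 2 members were called on day 42, neither of them among the 8. The share of all genes called with these covariates was not computed. With them Cfb had 0.041, adjusted p = 0.078, Plg 0.064, adjusted p = 0.062, C4bp -0.018, adjusted p = 0.51 and C9 -0.018, adjusted p = 0.89. In J mice alone C9 had -0.24, adjusted p = 0.11 and in N mice alone -0.14, adjusted p = 0.020. C4bp had -0.056, adjusted p = 0.072 in J mice and -0.062, adjusted p = 0.022 in N mice, and Cfb 0.046, adjusted p = 0.12 in J mice and 0.043, adjusted p = 0.13 in N mice. The directions of all 8 members were the same in both letters.

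The upstream sequences of C4bp and C9, the lower complement genes with the smallest adjusted p on day 42, are shown because both genes fell in liver on that day. They are 250 bases that end at the RefSeq gene start in build GRCm38.p6, read along the gene. Capitals mark GTTAAT, a core of the site of the hepatocyte factor HNF1, and TTGCNNAA, a form of the site of the C/EBP factors.
C4bp, chr1:130661619-130661868, minus strand: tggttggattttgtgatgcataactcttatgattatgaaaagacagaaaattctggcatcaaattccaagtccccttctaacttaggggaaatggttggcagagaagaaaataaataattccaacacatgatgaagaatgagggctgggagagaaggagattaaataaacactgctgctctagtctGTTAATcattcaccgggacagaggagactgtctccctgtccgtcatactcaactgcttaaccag
C9, chr15:6445096-6445345, plus strand: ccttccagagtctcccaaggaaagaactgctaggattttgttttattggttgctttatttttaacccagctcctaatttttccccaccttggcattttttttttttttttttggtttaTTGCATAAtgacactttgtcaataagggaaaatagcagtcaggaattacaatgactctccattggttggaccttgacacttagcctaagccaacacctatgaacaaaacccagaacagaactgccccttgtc
GTTAAT stands at bases -64 to -59 from the start of C4bp and TTGCATAA at bases -132 to -125 from the start of C9. Sequences were given for 28 of the 34 members, with 29 promoters because C8g has more than 1, and for 32851 promoters in all, and both strands were searched. GTTAAT was in 8 of the 29 (27.6%), against 6.43% of all promoters: those of C1ra, C4bp, C8a, C8b, F13b, Fga, Fgb and Hc. TTGCNNAA was in 7 (24.1%), against 9.56%: those of C3, C9, F11, F9, Fga, Fgb and Klkb1. TTCNNNGAA, a form of the STAT site, was in 6 (20.7%), against 7.02%: those of C8a, F9, Fga, Fgb, Masp2 and Pros1. These are matches of letters, not binding sites. The members with no entry are Cfb, Cfi, Kng1, Masp1, Plg and Proc.

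Against day 3 in place of day 0, day 42 had 5 lower members, all of complement, and no higher one, while 6.91% of all genes were called lower and 5.95% higher. C9 had -0.21 ± 0.052, adjusted p = 0.0041, and C4bp -0.079 ± 0.013, adjusted p = 2.7e-05. Mbl1 had 6.65, 8.62 and 9.46 on day 42, against 8.71, 9.17 and 10.2 on day 3 (-0.15 ± 0.036, adjusted p = 0.0036). Masp2 had -0.080 ± 0.022, adjusted p = 0.0097, and Cfi -0.040 ± 0.011, adjusted p = 0.012. Each of these 5 is thus lower after 42 days than after 3. Without J4 and N70 4 were called, with -0.12, adjusted p = 0.026 for C9, -0.064, adjusted p = 0.00036 for C4bp, -0.097, adjusted p = 0.045 for Mbl1 and -0.043, adjusted p = 0.012 for Cfi, and Masp2 had -0.055, adjusted p = 0.060. With the marker scores as covariates none of the 5 was called, and C9 had 0.00017, adjusted p = 1.0.

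On day 60, with 6 N mice, Cfb was higher and Klkb1 lower, 1 member in each direction, while 9.60% of all genes were called higher and 10.4% lower. Cfb had 15.3, 15.7 and 15.8 (0.071 ± 0.015, adjusted p = 0.00033, 6 of 6 mice), and it was the member called on all 7 days. Klkb1, the precursor of plasma kallikrein, had 8.01, 8.44 and 9.09, against 8.53, 9.08 and 9.54 on day 0 (-0.084 ± 0.029, adjusted p = 0.032, 5 of 6 mice). Its call was lost with the marker scores as covariates (-0.046, adjusted p = 0.33) and with arrays centred on their median (-0.070, adjusted p = 0.094). C9 had 10.7, 11.1 and 12.04 and missed the threshold (-0.15 ± 0.063, adjusted p = 0.071, 6 of 6 mice). Between the letters 7 members differed in liver, against 14.8% of all genes: F10 and Masp2 were higher and C1ra, F5, Fga, Fgg and Hc lower in N mice than in J mice, with the widest difference in F5 (-0.050 ± 0.011, adjusted p = 0.00087).

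**Figure D2:**
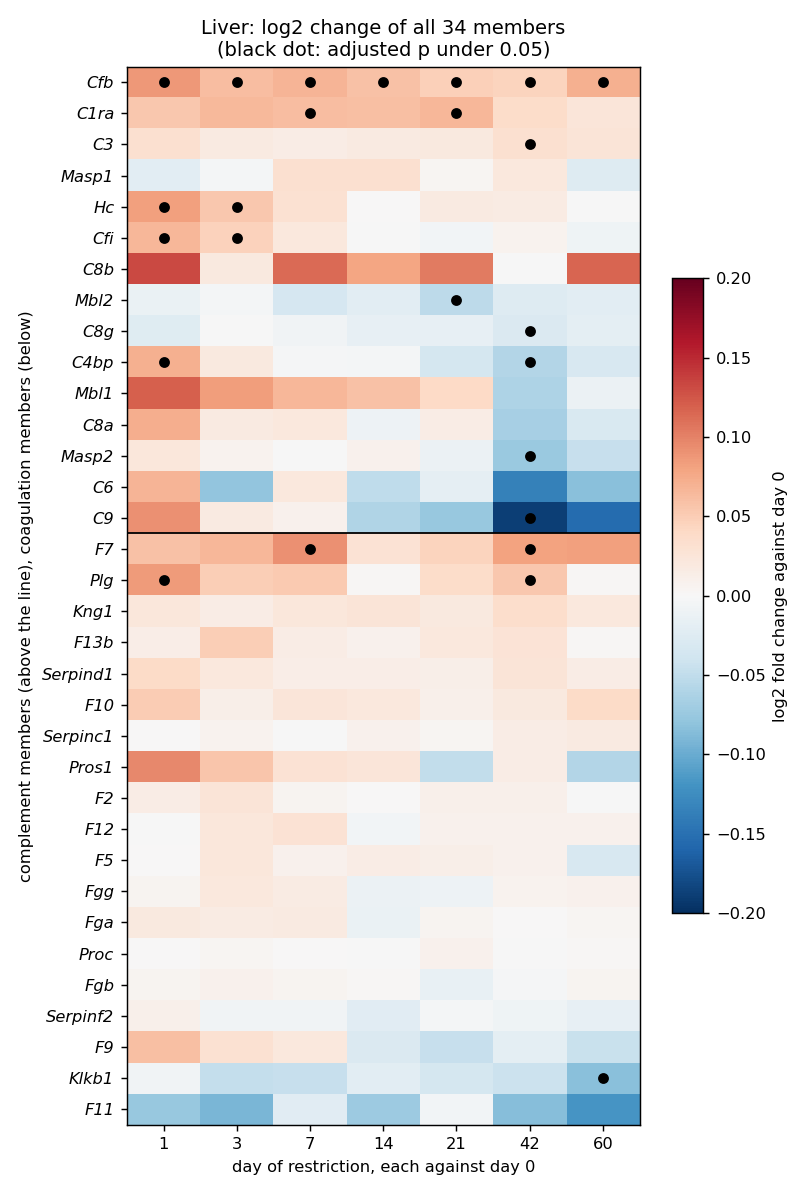
Log2 fold change in liver of the 15 complement members (above the line) and the 19 coagulation members (below it) on each day of restriction against day 0, with black dots where the adjusted p was under 0.05. Cfb carries a dot on all 7 days, and the day 42 column holds 8 dots, 4 on higher and 4 on lower members.

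On day 42, 2 of the 19 coagulation genes and 6 of the 15 complement genes were called in liver, beside 8.08% of all genes called higher and 13.2% called lower, which together are a share close to that of the members. The median change was 0.0089 over the coagulation genes and -0.026 over the complement genes, while that of all genes tested was -0.012. On day 1 the medians were 0.014 and 0.068, while that of all genes was -0.0051. The fibrinogen chains, the substrate of thrombin, were called on no day. On day 42 Fga had 23.8, 24.7 and 25.3, against 23.9, 24.6 and 26.1 on day 0 (0.0012 ± 0.014, adjusted p = 0.97), Fgb had 31.4, 31.8 and 32.7, against 31.4, 31.95 and 32.4 (-0.0021 ± 0.010, adjusted p = 0.91), and Fgg had 28.9, 29.6 and 30.2, against 28.7, 29.4 and 30.5 (0.0070 ± 0.012, adjusted p = 0.74). On day 1 their changes were 0.020 ± 0.019, 0.0053 ± 0.014 and 0.0053 ± 0.016, with adjusted p-values of 0.68, 0.90 and 0.92. F2, which encodes prothrombin, had 23.7, 24.2 and 24.7 on day 42, against 23.8, 23.98 and 24.5 (0.010 ± 0.010, adjusted p = 0.53). Serpinc1, antithrombin, had 28.2, 28.6 and 29.4, against 28.2, 28.3 and 28.6 (0.015 ± 0.0064, adjusted p = 0.084, 10 of 12 mice). With C3, these 5 genes are the 6 members near the top of the scale, where the differences of all genes were small.

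Along the contact and intrinsic steps of the cascade the day 42 changes were 0.0089 ± 0.019, adjusted p = 0.79 for F12, -0.085 ± 0.042, adjusted p = 0.14 for F11, 0.035 ± 0.014, adjusted p = 0.073 for Kng1, the kininogen that carries factor XI and prekallikrein, and -0.020 ± 0.023, adjusted p = 0.60 for F9. In the common steps they were 0.019 ± 0.020, adjusted p = 0.55 for F10 and 0.0086 ± 0.018, adjusted p = 0.79 for F5, and 0.027 ± 0.020, adjusted p = 0.38 for F13b, a subunit of the factor that cross-links fibrin. Of the inhibitors, Proc (protein C) had -0.0014 ± 0.012, adjusted p = 0.95, Serpind1 (heparin cofactor) 0.026 ± 0.012, adjusted p = 0.12 and Serpinf2 (the inhibitor of plasmin) -0.0081 ± 0.015, adjusted p = 0.76. None of these 10 genes passed the test on any day against day 0. F9 and Pros1 passed the F test over all days (adjusted p = 0.018 and 0.00030). The medians of Pros1 were 9.17, 9.52, 9.49, 9.36, 9.27, 8.86, 9.23 and 8.83 from day 0 to day 60, highest on day 1 and lowest on day 60.

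C6, C8a, C8b and Masp1 were called on no day. C6, C8a and C8b encode parts of the membrane attack complex, and Masp1 a protease of the lectin route. The residual SD between mice in liver was 0.18 log2 units for C6, 0.16 for C8b, 0.12 for C9 and 0.072 for C8a, against 0.013 for Serpinc1. On day 42 C6 had 3.54, 6.35 and 7.30, against 6.19, 6.59 and 7.30 on day 0 (-0.14 ± 0.073, adjusted p = 0.19, 8 of 12 mice), and the lowest value was that of mouse J4.

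Related genes outside the 34 were read from separate lists. Of 16 tested acute-phase genes of 18 listed, 11 rose in liver on day 1, beside 1.83% of all genes, and 8 did without mouse J60. Among them, chosen after their values were seen, Orm2, an acid glycoprotein, had 1.14 ± 0.17, adjusted p = 2.6e-05, and Lcn2, lipocalin, 1.40 ± 0.25, adjusted p = 0.00042. On day 3 6 of the 16 rose, beside 1.18% of all genes. On day 42 Itih3 was higher (0.057 ± 0.020, adjusted p = 0.033) and Saa2, a serum amyloid, lower (-0.37 ± 0.10, adjusted p = 0.0065). Of 23 tested complement genes beyond the members, of 29 listed, Cd55 was higher in liver on day 42 (0.18 ± 0.042, adjusted p = 0.0012) and 3 were lower, beside 8.08% higher and 13.2% lower of all genes. Those 3 were Cfd (-1.32 ± 0.25, adjusted p = 3.5e-05), Cd59a (-0.13 ± 0.034, adjusted p = 0.0032) and Cpn1 (-0.054 ± 0.020, adjusted p = 0.046). Cfd encodes factor D, which cuts factor B and is known above all as a product of adipocytes. Adipocyte markers in liver, 5 of 6 measured, summed to 1.10 to 2.64 on day 42 and to 1.52 to 2.40 on day 0, and their part in the change of Cfd was not tested.

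Of 26 tested coagulation and fibrinolysis genes beyond the members, of 30 listed, 5 were higher and 3 lower in liver on day 42, beside the same shares of all genes. Mcfd2, which helps to export factors V and VIII from cells, had 0.075 ± 0.020, adjusted p = 0.0037. Anxa2 and S100a10, whose proteins form a receptor for plasminogen, had -0.16 ± 0.041, adjusted p = 0.0019 and -0.18 ± 0.036, adjusted p = 0.00016, and F2r, a thrombin receptor, -0.16 ± 0.050, adjusted p = 0.016. Of 20 tested regulators of hepatocyte transcription, of 22 listed, 3 were lower and none higher, again beside 13.2% and 8.08% of all genes: Ppara (-0.20 ± 0.033, adjusted p = 4.4e-06), Creb3l3 (-0.10 ± 0.024, adjusted p = 0.0011) and Cebpd (-0.21 ± 0.069, adjusted p = 0.019).

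In fat fewer members were measurable. The filter on low values was passed by 19 of the 34 in the subcutaneous-labelled depot, 24 in the mesenteric-labelled one, 20 in the perirenal-labelled one and 19 in the perigonadal-labelled one, and F9, F12, F13b, Plg, Kng1, Hc, C8a and Mbl2 passed in none. On day 42 1 member was called, lower, in the subcutaneous-labelled depot, where 1.09% of all genes were higher and 2.95% lower. In each of the others 5 were called, 1 higher and 4 lower in the mesenteric-labelled, 5 lower in the perirenal-labelled, and 2 higher and 3 lower in the perigonadal-labelled depot. These stand against 32.2% of all genes called in either direction in the mesenteric-labelled depot, 12.6% higher and 9.39% lower in the perirenal-labelled one, and 13.2% and 13.6% in the perigonadal-labelled one.

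Cfb fell in all 4 depots on day 42. In the subcutaneous-labelled depot it had a lowest, median and highest of 3.00, 4.02 and 4.70 on day 42, against 4.29, 4.68 and 5.19 on day 0 (-0.26 ± 0.049, adjusted p = 0.00046, 10 of 11 mice). In the mesenteric-labelled one it had 4.07, 5.33 and 6.51, against 5.52, 6.79 and 6.98 (-0.33 ± 0.059, adjusted p = 9.1e-06, 11 of 11 mice). In the perirenal-labelled depot it had 2.84, 5.27 and 6.78, against 5.65, 6.05 and 7.40 (-0.34 ± 0.088, adjusted p = 0.0028, 11 of 12 mice), and in the perigonadal-labelled one 4.63, 5.97 and 6.85, against 6.32, 6.75 and 7.13 (-0.21 ± 0.040, adjusted p = 5.5e-05, 9 of 10 mice). In each depot the ranges of the days overlapped, and the lowest mouse of day 42 lay below every day 0 mouse.

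C6, which binds the earlier components at the start of the membrane attack complex, fell in 3 depots. In the mesenteric-labelled depot it had 0.780, 1.14 and 1.46 on day 42, against 1.24, 1.68 and 1.82 on day 0 (-0.51 ± 0.088, adjusted p = 4.9e-06, 11 of 11 mice). Its day medians there were 1.68, 1.57, 1.46, 1.24, 1.22, 1.19, 1.14 and 1.10 from day 0 to day 60, each lower than the one before. In the perirenal-labelled depot C6 had 0.903, 1.28 and 2.12, against 1.56, 1.85 and 2.30 (-0.57 ± 0.082, adjusted p = 4.2e-07, 11 of 12 mice), and in the perigonadal-labelled one 0.597, 1.02 and 1.46, against 0.995, 1.36 and 1.57 (-0.43 ± 0.090, adjusted p = 0.00020, 9 of 10 mice). It missed the threshold in the subcutaneous-labelled one (-0.27 ± 0.12, adjusted p = 0.22, 7 of 11 mice). The ranges of the days overlapped in every depot.

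F7 fell in the same 3 depots. In the mesenteric-labelled depot it had 0.657, 0.874 and 1.08 on day 42, against 0.993, 1.23 and 1.44 on day 0 (-0.54 ± 0.097, adjusted p = 1.1e-05, 11 of 11 mice). In the perirenal-labelled one it had 0.269, 0.512 and 0.734, against 0.456, 0.815 and 1.02 (-0.64 ± 0.16, adjusted p = 0.0019, 12 of 12 mice), and in the perigonadal-labelled one 0.101, 0.120 and 0.202, against 0.137, 0.163 and 0.215 (-0.42 ± 0.14, adjusted p = 0.020, 9 of 10 mice). F10, the protease that factor VII activates, fell in the mesenteric-labelled (-0.26 ± 0.072, adjusted p = 0.0029, 10 of 11 mice) and the perirenal-labelled depot (-0.26 ± 0.085, adjusted p = 0.021, 10 of 12 mice). It missed the threshold in the perigonadal-labelled (-0.17 ± 0.075, adjusted p = 0.079, 9 of 10 mice) and the subcutaneous-labelled depot (-0.13 ± 0.097, adjusted p = 0.58, 7 of 11 mice), as F7 did in the subcutaneous-labelled one (-0.18 ± 0.12, adjusted p = 0.52, 8 of 11 mice).

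The upstream sequences of C6 and F7 are shown in the same way because both genes fell in these 3 depots. Neither holds any of the 3 motifs, so no letter is in capitals.
C6, chr15:4726960-4727209, plus strand: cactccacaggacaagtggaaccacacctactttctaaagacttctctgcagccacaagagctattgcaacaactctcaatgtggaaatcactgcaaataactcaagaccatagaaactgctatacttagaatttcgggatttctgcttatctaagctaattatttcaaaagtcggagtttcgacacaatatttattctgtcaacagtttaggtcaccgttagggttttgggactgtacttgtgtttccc
F7, chr8:13025784-13026033, plus strand: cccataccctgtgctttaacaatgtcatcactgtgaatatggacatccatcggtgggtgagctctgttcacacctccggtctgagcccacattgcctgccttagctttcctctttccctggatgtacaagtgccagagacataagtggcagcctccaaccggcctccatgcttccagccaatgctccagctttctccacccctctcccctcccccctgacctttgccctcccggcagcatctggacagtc

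On other days the depots gave the following changes against day 0. In the mesenteric-labelled depot C6 had -0.43 ± 0.086, adjusted p = 0.00099 on day 7, -0.43 ± 0.086, adjusted p = 0.00021 on day 21 and -0.57 ± 0.11, adjusted p = 4.3e-05 on day 60. F7 there had -0.16 ± 0.094, adjusted p = 0.35 on day 7, -0.35 ± 0.094, adjusted p = 0.0073 on day 21 and -0.81 ± 0.12, adjusted p = 3.1e-07 on day 60. In the perirenal-labelled depot F7 had -0.25 ± 0.16, adjusted p = 0.47 on day 21 and -1.05 ± 0.20, adjusted p = 7.3e-05 on day 60. C6 was thus called in the mesenteric-labelled depot from day 7 on, and F7 there from day 21 on. In the perirenal-labelled depot C6 was also lower on days 21 and 60, and F10, Fgb and Mbl1 on day 60. There 1171 of 13633 genes were called lower on day 60. C6 and F7 were lower in the perigonadal-labelled depot on day 60, and F10 in the mesenteric-labelled one. C8g was higher in the mesenteric-labelled depot on day 60, and Pros1 in the perigonadal-labelled one on day 21. Cfb had -0.13 ± 0.057, adjusted p = 0.12 on day 21 and -0.29 ± 0.072, adjusted p = 0.0018 on day 60 in the mesenteric-labelled depot, and -0.14 ± 0.048, adjusted p = 0.023 on day 60 in the perigonadal-labelled one. On day 60 it had -0.18 ± 0.060, adjusted p = 0.047, 4 of 6 mice in the subcutaneous-labelled depot, and it missed the threshold in the perirenal-labelled one (-0.27 ± 0.11, adjusted p = 0.078, 4 of 6 mice).

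Other members were higher in some depots. C1ra had 2.77, 3.41 and 3.72 on day 42 in the mesenteric-labelled depot, against 2.25, 2.85 and 3.15 on day 0 (0.21 ± 0.048, adjusted p = 0.00054, 10 of 11 mice), and 3.76, 4.19 and 4.97 in the perigonadal-labelled one, against 3.22, 3.81 and 4.06 (0.16 ± 0.037, adjusted p = 0.00053, 10 of 10 mice). C3 had 12.7, 14.2 and 16.4 in the perigonadal-labelled depot, against 10.4, 12.6 and 14.02 (0.17 ± 0.040, adjusted p = 0.00091, 8 of 10 mice). C1ra was also called higher there on days 7, 14, 21 and 60, and C3 on days 7, 21 and 60. On day 21 they had 0.23 ± 0.036, adjusted p = 1.1e-06 and 0.19 ± 0.039, adjusted p = 0.00028. In the mesenteric-labelled depot C1ra was higher on days 14, 21 and 60 too. On day 42 C3 missed the threshold in the subcutaneous-, mesenteric- and perirenal-labelled depots, with 0.040 ± 0.040, adjusted p = 0.73, 0.037 ± 0.023, adjusted p = 0.23 and 0.045 ± 0.021, adjusted p = 0.12. C1ra had 0.096 ± 0.041, adjusted p = 0.080 on day 42 in the perirenal-labelled depot and 0.0013 ± 0.062, adjusted p = 1.0 in the subcutaneous-labelled one. It was called higher in the perirenal-labelled depot on day 21 (0.15 ± 0.041, adjusted p = 0.031, 11 of 12 mice) and day 60 (0.15 ± 0.052, adjusted p = 0.027, 6 of 6 mice). C9 was lower in the perirenal-labelled depot (-0.16 ± 0.058, adjusted p = 0.046, 11 of 12 mice), at intensities of 0.0544, 0.0645 and 0.0710 on day 42 and 0.0591, 0.0690 and 0.105 on day 0, and had -0.12, adjusted p = 0.078 with erythroid, muscle and hepatocyte marker scores as covariates. That change of C9 was also not called without the filter (adjusted p = 0.053), in J mice alone (-0.041, adjusted p = 0.70) or in N mice alone (-0.27, adjusted p = 0.13), and was -0.067 with an offset of 0.1, where it kept its call. With the same covariates F7 in the perigonadal-labelled depot had -0.36, adjusted p = 0.057, and with an offset of 0.1 it had -0.24, adjusted p = 0.037. Its call was lost in 2 of 10 alternatives, with an adjusted p of up to 0.37. C6 in its 3 depots and Cfb in the perigonadal-labelled one kept their day 42 calls in all 10. The remaining depot calls of day 42 were each lost in 1 or 2 of 10 alternatives, with F10 in the mesenteric-labelled depot reaching an adjusted p of 0.33.

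Neutrophil markers, 5 of 6 measured, moved with these results. They summed to 0.921 to 1.82 on day 42 in the mesenteric-labelled depot and to 2.08 to 3.55 on day 0, to 1.05 to 2.35 and 1.51 to 3.06 in the perirenal-labelled one, and to 0.684 to 1.42 and 0.964 to 2.43 in the perigonadal-labelled one. Adipocyte markers summed to 77.2 to 85.8 and 80.1 to 86.5 in the mesenteric-labelled depot. The part of these cells in the changes of Cfb, C6, F7 and F10 was not tested.

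**Figure D3:**
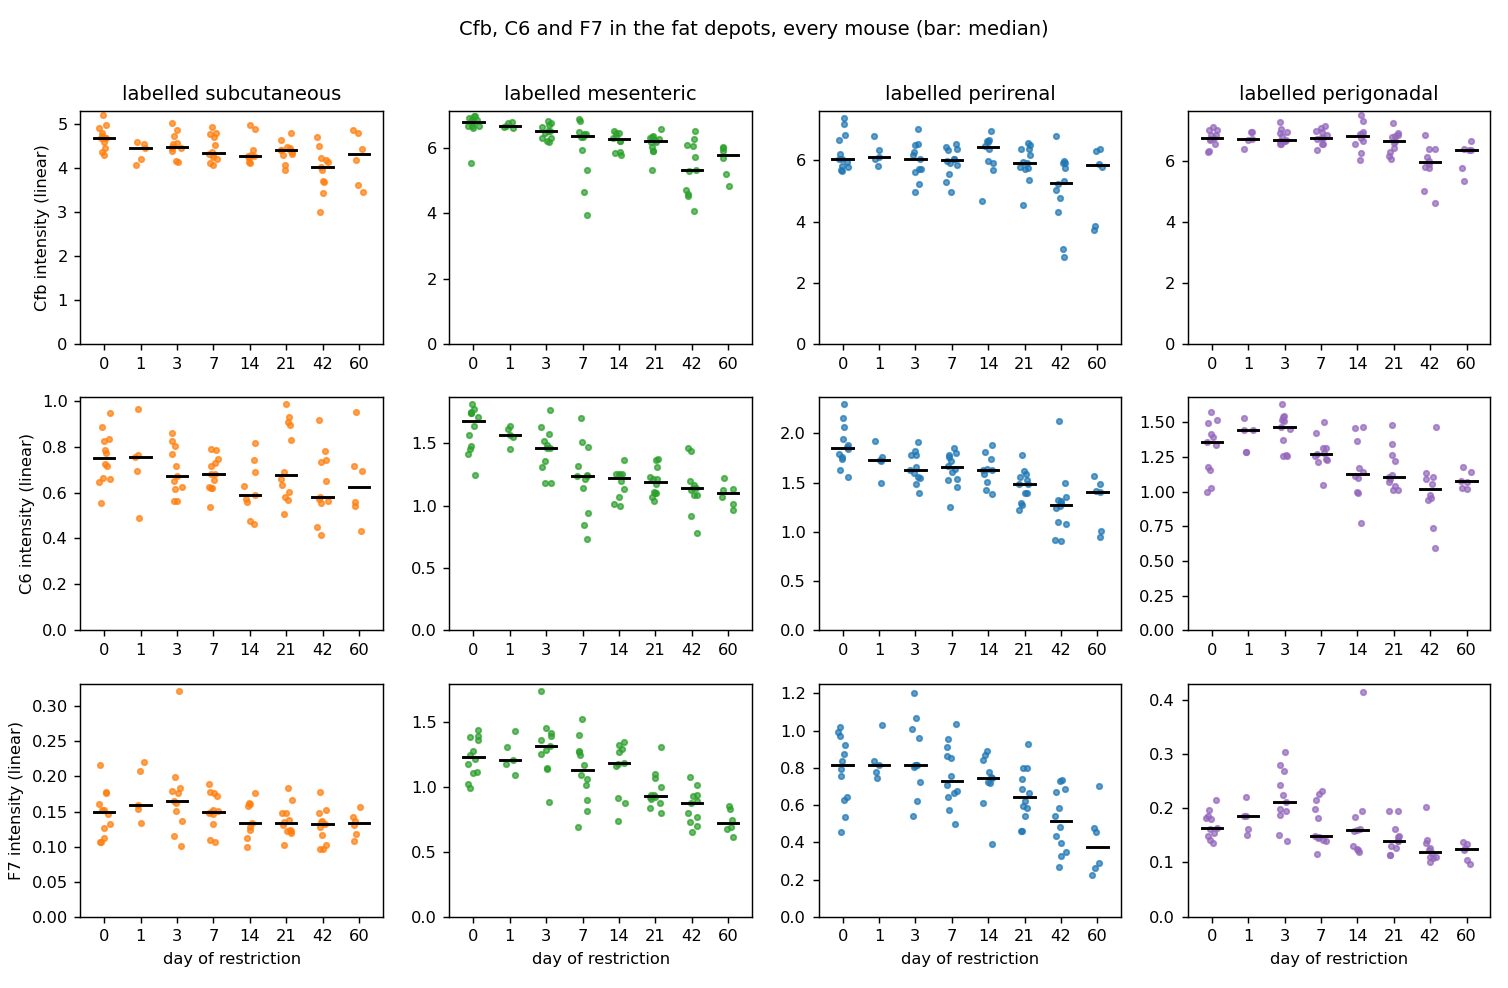
Deposited linear intensity (vertical axis from 0, scaled for each panel) of Cfb, C6 and F7 in the 4 fat depots by day of restriction, with 1 point per mouse and a bar at the median of each day. In the mesenteric-labelled depot the medians of day 42 are 5.33 for Cfb, 1.14 for C6 and 0.874 for F7, against 6.79, 1.68 and 1.23 on day 0.

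Whether the day 42 change differed between liver and a depot was tested in a fit of both tissues. Members called were 1 of 19 for the subcutaneous-labelled depot, 5 of 24 for mesenteric, 4 of 20 for perirenal and 4 of 19 for perigonadal, against 4.03%, 24.1%, 18.4% and 20.2% of all genes in these comparisons. Cfb was called in all 4, with liver minus depot at 0.30 ± 0.049 for subcutaneous (adjusted p = 1.1e-05), 0.37 ± 0.059 for mesenteric (adjusted p = 3.8e-07), 0.39 ± 0.089 for perirenal (adjusted p = 0.00068) and 0.25 ± 0.040 for perigonadal (adjusted p = 5.9e-07). Cfb was thus higher after 42 days in liver and lower in fat.

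The estimates of F7 ran in opposite directions as well, with liver minus depot at 0.62 ± 0.099 for mesenteric (adjusted p = 5.2e-07), 0.72 ± 0.16 for perirenal (adjusted p = 0.00046) and 0.50 ± 0.14 for perigonadal (adjusted p = 0.0043). In liver alone the change of F7 was 0.080, and its call was lost in 4 of 12 alternatives, among them without J4 and N70. C6 differed by 0.38 ± 0.11 from mesenteric (adjusted p = 0.0090) and by 0.44 ± 0.11 from perirenal (adjusted p = 0.0018), and F10 by 0.28 ± 0.074 (adjusted p = 0.0021) and 0.28 ± 0.088 (adjusted p = 0.016) from the same depots. C1ra, which was not called in liver on day 42 (0.036 ± 0.021, adjusted p = 0.21), had differences of -0.17 ± 0.052 for mesenteric (adjusted p = 0.0093) and -0.12 ± 0.041 for perigonadal (adjusted p = 0.020). Its differences for perirenal, -0.060 ± 0.046 (adjusted p = 0.40), and subcutaneous, 0.035 ± 0.065 (adjusted p = 0.87), missed the threshold. C3, which was higher on day 42 in liver and in the perigonadal-labelled depot, had a difference of -0.14 ± 0.039 for perigonadal (adjusted p = 0.0060). In liver C3 lies near the top of the scale, where the changes of all genes were small. The part of the scale in this difference was not tested. Without liver arrays J4 and N70 the difference of C1ra for perigonadal missed the threshold (-0.10, adjusted p = 0.072), and the other 13 passed. It missed it too with arrays centred on their median (-0.11, adjusted p = 0.074).

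**Figure D4:**
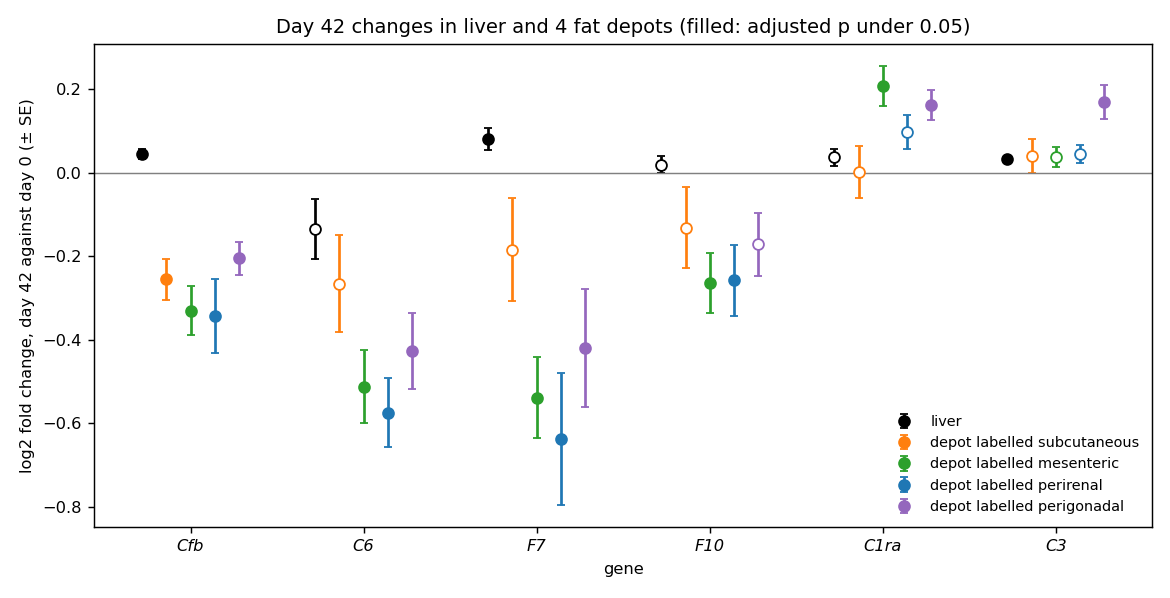
Log2 fold change of day 42 against day 0 (vertical axis, with standard errors) for Cfb, C6, F7, F10, C1ra and C3, with liver at the left and the subcutaneous-, mesenteric-, perirenal- and perigonadal-labelled depots after it; filled points had an adjusted p under 0.05. Cfb lies at 0.044 in liver and between -0.34 and -0.21 in the depots.

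In the mesenteric-labelled depot the letters differed. Of 24 members 12 were higher and 1 lower in N mice than in J mice, against 17.5% of all genes higher and 12.6% lower. F2 had 0.81 ± 0.15, adjusted p = 0.00011, Fgb 0.58 ± 0.11, adjusted p = 0.00015 and Serpinc1 0.46 ± 0.10, adjusted p = 0.00072, and C4bp was lower (-0.84 ± 0.32, adjusted p = 0.041). Hepatocyte markers there summed to 11.8 to 28.6 in N mice, with a median of 15.9, and to 8.08 to 17.1 in J mice, with a median of 13.9, and their part in this difference was not tested. In the other depots C3 in the perigonadal-labelled one was the single member called between the letters (0.085 ± 0.023, adjusted p = 0.029). Of all genes tested there, 315 of 13450 were called between the letters. The same comparison called 8 of 13633 genes in the perirenal-labelled depot and 1117 of 13443 in the subcutaneous-labelled one.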

How the data were processed

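RNA of 466 tissue samples from 80 mice was measured on arrays with 32640 probe sets, of which 25508 carry 1 gene symbol. The deposited values are linear intensities with array means of 0.962 to 0.999, and no source used here gives the normalisation. Replicates are separate animals by their IDs. The number of arrays limits the precision.

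For each gene and tissue the probe set of highest mean was read. Genes with a mean under the 25th percentile were left out, and log2 values without an offset were fitted with limma 3.58.1 in R 4.3.3 (day and letter as terms, eBayes with trend and robust options, Benjamini-Hochberg adjustment over all genes, threshold 0.05). The code was tested on simulated data. Liver minus depot differences used both tissues in 1 fit. Same-numbered tissues came from the same animal by ID, and the median correlation of their residuals was 0.037 to 0.058 over the depots. The rule gave values in liver for the 10 members with the smallest F-test p and for Fga, Fgb, Fgg, C3, F2, Plg, Serpinc1, Hc, Mbl1 and Mbl2, in depots for up to 6 called members plus C3 and Cfb, and in other lists for up to 4. Other members were added after their values were seen, so that each is accounted for. Members and lists were chosen with earlier results of these data known. Alternatives were the letter term, the mean of all probe sets, the filter, quantile or median scaling, an offset, plain eBayes, marker scores, each letter alone, an animal block and mice left out.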

Additional observations from a re-analysis of the deposited data

Results flagged for a closer look

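Of 69 groups of 4 to 10 mice, 63 of them in liver, 3 held a mouse far from the others, and chance gives about 1 in 20. On day 14 Serpinc1 in liver was lowest in mouse N35, at 28.1, with 28.4 in the nearest mouse. On day 60 C9 in liver was highest in mouse N14, at 12.04, with 11.2 in the nearest mouse. On day 42 F7 in the perigonadal-labelled depot was highest in mouse J30, at 0.202, with 0.142 in the nearest mouse.

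The day 42 change differed between liver and a depot for 14 pairs of gene and depot in limma, given here as liver minus depot on the log2 scale. These were 1 of 19 members for the subcutaneous-, 5 of 24 for the mesenteric-, 4 of 20 for the perirenal- and 4 of 19 for the perigonadal-labelled depot. Such shares are near those of all genes, which were 4.03%, 24.1%, 18.4% and 20.2% in the same order. For the mesenteric-labelled depot these were C1ra at -0.17, C6 at 0.38, Cfb at 0.37, F10 at 0.28 and F7 at 0.62. For the perirenal-labelled one they were C6 at 0.44, Cfb at 0.39, F10 at 0.28 and F7 at 0.72. For the perigonadal-labelled one they were C1ra at -0.12, C3 at -0.14, Cfb at 0.25 and F7 at 0.50, and for the subcutaneous-labelled one Cfb at 0.30.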

How the results depend on the processing

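Counts below are members called by limma. The share of all genes called was not computed for these settings, so the counts do not show whether a shift is particular to the members. Over the settings tried, 499 of 587 single-gene values kept their direction and call, 87 kept the direction but missed the threshold, and C9 in liver on day 42 against day 3 turned to 0.00017 with marker scores as covariates. The causes were not tested. Without the letter term day 60 gave 4 in place of 2. With arrays centred on their median, day 3 gave 7 in place of 3, day 14 gave 2 in place of 1, and day 42 against day 3 gave 8 in place of 5. With marker scores, day 14 gave 2, day 42 gave 2 in place of 8, and day 42 against day 3 gave 2. J mice alone, with fewer samples, gave 0 in liver on days 3, 7, 14, 21 and 42 (6, 3, 2, 4 and 9 members with an unadjusted p under 0.05). N mice alone gave 0 on days 3, 14 and 21 (4, 3 and 4 unadjusted), 1 on day 7 and 3 on day 42. Leaving out each day 1 mouse gave 1 to 6 in place of 5, with 1 without J60. On day 42 the subcutaneous-labelled depot gave 0 in J mice and 0 in N mice in place of 1 (2 and 3 unadjusted), the mesenteric-labelled one 1 in J mice in place of 5, the perirenal-labelled one 1 in N mice in place of 5, and the perigonadal-labelled one 3 in J mice in place of 5. The settings without J4, without J4 and N70 and without N15 were chosen after seeing the data. Without J4 day 42 gave 8 and without both 6, and the F test gave 10 and 12. With each animal as a replicate block, the liver minus depot counts were 1, 5, 4 and 5 for the subcutaneous-, mesenteric-, perirenal- and perigonadal-labelled depots, in place of 1, 5, 4 and 4, and all 14 earlier calls were kept. Limits: day 1 holds 5 J mice and day 60 holds 6 N mice, so no letter split exists there. Intensities near the top of the scale moved little in all genes. Members under the filter in a depot were not tested there.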

Other observations

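Acute-phase, complement and coagulation genes outside the members were read in fat on day 42 as well, in the limma fits described above. Over all genes, 1.09% were higher and 2.95% lower in the subcutaneous-labelled depot, 32.2% were called in either direction in the mesenteric-labelled one, 12.6% were higher and 9.39% lower in the perirenal-labelled one, and 13.2% were higher and 13.6% lower in the perigonadal-labelled one. Of the acute-phase list, 0 higher and 4 lower of 13 tested genes were called in the subcutaneous-labelled depot, 1 higher and 7 lower of 13 in the mesenteric-labelled one, 1 higher and 6 lower of 13 in the perirenal-labelled one and 1 higher and 6 lower of 13 in the perigonadal-labelled one. Saa3, a serum amyloid made outside the liver, had log2 changes of -1.48 ± 0.14, -1.45 ± 0.16 and -1.74 ± 0.22 in the mesenteric-, perirenal- and perigonadal-labelled depots, and missed the threshold in the subcutaneous-labelled one (-0.51 ± 0.20, adjusted p = 0.15). Lbp, which binds bacterial lipopolysaccharide, had -0.78 ± 0.12, -0.50 ± 0.058, -0.70 ± 0.098 and -0.67 ± 0.084 in the subcutaneous-, mesenteric-, perirenal- and perigonadal-labelled depots. Serpina3n, a protease inhibitor, had -0.46 ± 0.078, -0.45 ± 0.058, -0.48 ± 0.073 and -0.26 ± 0.043 in the same order.

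Of other complement genes, 0 higher and 0 lower of 20 were called in the subcutaneous-labelled depot (3 with an unadjusted p under 0.05), 4 higher and 6 lower of 19 in the mesenteric-labelled one, 2 higher and 3 lower of 21 in the perirenal-labelled one and 5 higher and 1 lower of 22 in the perigonadal-labelled one. In the last 2 depots the shares called, both directions together, are near those of all genes. Cfd, which was lower in liver, had 0.23 ± 0.043, 0.14 ± 0.020 and 0.074 ± 0.020 in the mesenteric-, perirenal- and perigonadal-labelled depots. Of other coagulation genes, the counts were 0 higher and 3 lower of 25, 3 higher and 8 lower of 22, 2 higher and 6 lower of 23 and 2 higher and 5 lower of 24 in the same order of the 4 depots. Tfpi2, an inhibitor of serine proteases, had -0.68 ± 0.12, -0.63 ± 0.10, -0.66 ± 0.15 and -0.60 ± 0.11 in that order too. Neutrophil marker sums are given beside the members for the mesenteric-, perirenal- and perigonadal-labelled depots, not for the subcutaneous-labelled one. The part of these cells in the changes was not tested.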
